A study of Mus musculus with 8 samples.

Results

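Genes of cardiac macrophages and of the monocytes that feed them were followed in mouse hearts with and without pressure overload. The 10 genes were taken by name and not by their values: Csf1r, Adgre1 and Cd68, shared by macrophages, Lyve1, Mrc1, Cd163 and Timd4, used as markers of resident macrophages, and Ccr2, Cx3cr1 and Ccl2, which belong to monocyte traffic. Each was found through its Ensembl identifier, so that 10 of the 25929 genes in the table were described, and all 10 passed the filter on low values (14442 genes passed). The heart was sampled in 4 groups of 2 libraries. WT-Sham and WT-TAC were C57BL/6 wild-type mice, and Fat1-Sham and Fat1-TAC were littermates that carry fat-1, the n-3 fatty acid desaturase gene of Caenorhabditis elegans, which turns n-6 into n-3 polyunsaturated fatty acids. TAC is transverse aortic constriction, which narrows the aorta and loads the left ventricle with pressure, and sham mice had the operation without the constriction. The methods give an age of 3 months at surgery. The labels call the tissue ventricular, whereas the methods speak of hearts, and whether each library came from 1 mouse, the promoter of the transgene and the sex of the mice are not given in the sources used here. P-values therefore measure the spread between these libraries, which may be technical.

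The adult heart holds macrophages that settle before birth and renew themselves in the tissue, and macrophages that arise from circulating monocytes. Colony stimulating factor 1 and interleukin 34 keep macrophages alive through the receptor Csf1r. Monocytes that carry the chemokine receptor Ccr2 leave the marrow and enter injured tissue along its ligands, of which Ccl2 is the best known, and monocyte entry is a described feature of the pressure-loaded heart. Resident cardiac macrophages are commonly marked by Lyve1, Timd4, Mrc1 and Cd163, with little Ccr2.

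The libraries held between 14163994 and 21218331 fragments, and the counts behind the 10 genes ran from 32 fragments of Ccl2 in Fat1-TAC1 to 1704 of Csf1r in WT-TAC1. WT-TAC1 stood apart from the other 7 libraries. The summed level of 4 thymocyte genes was 803 FPKM (fragments per kilobase of transcript, scaled to library size) in WT-TAC1 and at most 0.311 FPKM elsewhere, the summed level of 5 T cell genes was 864 FPKM against 1.45 to 5.56 FPKM, and that of 6 cardiomyocyte genes was 22900 FPKM against 41800 to 55600 FPKM. The 5 airway epithelium genes summed to 1330 and 3530 FPKM in the WT-TAC libraries, to 44.0 FPKM in Fat1-Sham1 and to at most 0.865 FPKM in the other 5. The 6 cardiomyocyte genes were thus present at high levels in every library, while both WT-TAC libraries also held mRNA of other tissues. Mitochondrially encoded genes took 11.7% of the fragments of WT-TAC1 and 19.3% to 27.6% of those of the other 7. The scale of the table shifted as well: the median tested gene was higher in WT-TAC by 0.39 relative to WT-Sham (log2) and 0.40 lower in Fat1-TAC than in WT-TAC, and a scaling to the median ratio of the libraries, which removes this shift, is given below beside the counts of genes.

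The mean levels of the 10 genes were lower in fat-1 than in WT hearts, but no gene of the 10 passed the threshold in any comparison. For Adgre1, Lyve1, Mrc1 and Cd163 no fat-1 library reached a WT library, as in 4.56% of all tested genes. After scaling to the median ratio this held for Mrc1 alone of the 10, as for 3.16% of all tested genes. Calls required an adjusted p (Benjamini-Hochberg, over all tested genes) under 0.1 and a fold change over 1.5 in limma on log2(FPKM + 1). Averaged over both surgeries, a comparison added after the values were seen, the means of 10 of 10 genes were lower in fat-1, with a median difference of -0.53 (log2) against -0.22 over all tested genes, of which 76.5% were lower. Of the 14442 genes, 0.0346% were called lower in that comparison. The smallest adjusted p of the 10 was 0.213, for Lyve1, and limma-voom on the recovered fragments also called 0. With the p left unadjusted and under 0.05, 3 of the 10 genes were lower at that fold, against 7.39% of all tested genes. Without WT-TAC2, the WT-TAC library without the thymocyte mRNA, 4 genes (Cd68, Ccr2, Lyve1 and Mrc1) were called lower, but so many others were that 25.6% of all tested genes were called. In whole tissue, fewer macrophages and less mRNA in each macrophage cannot be told apart.

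**Figure D1:**
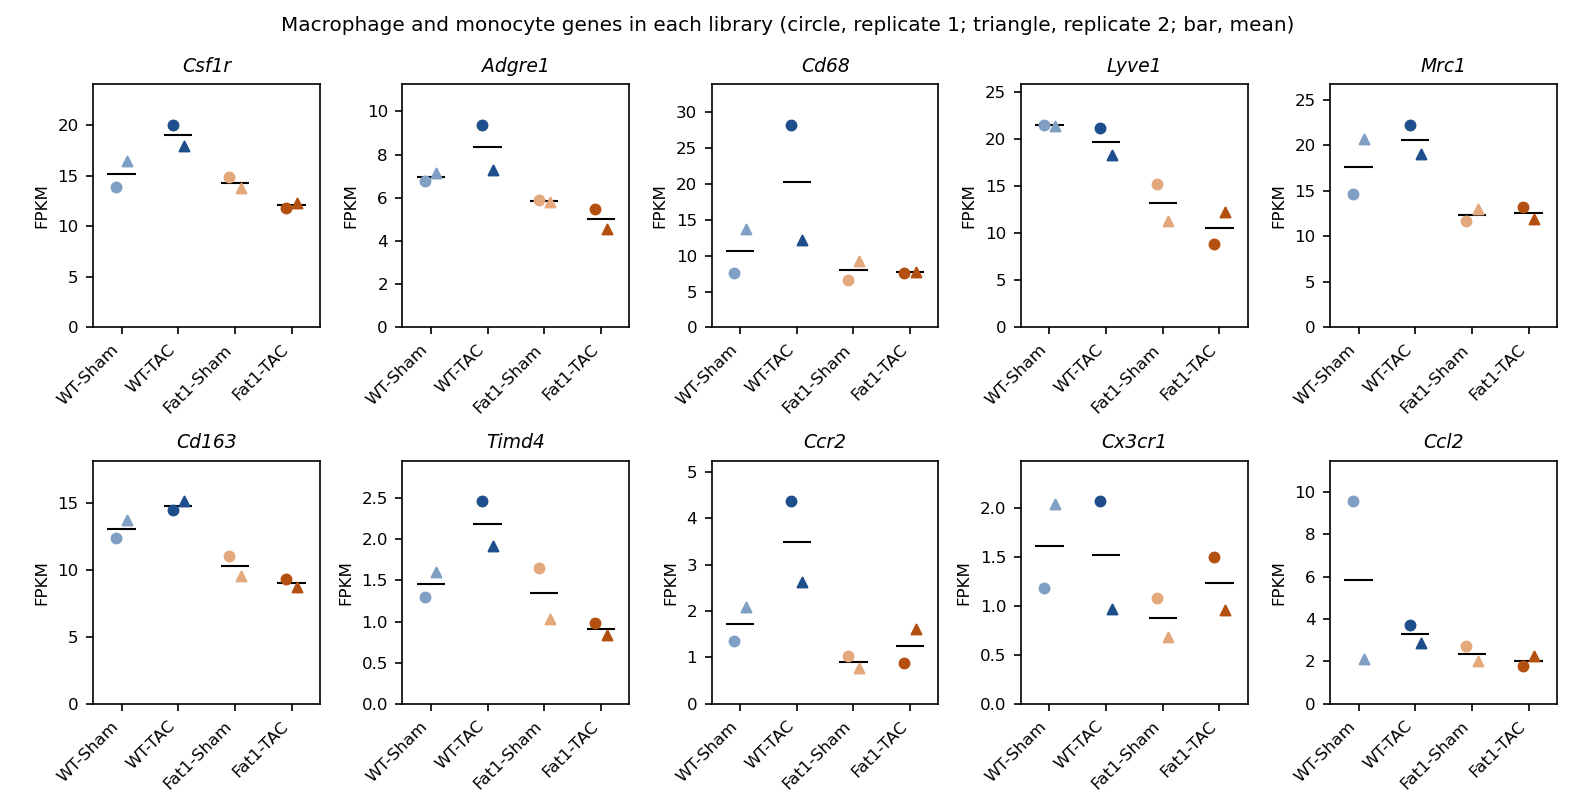
Level of the 10 genes in FPKM (y axes, from 0) in the 8 libraries, grouped by genotype and surgery, with a circle for replicate 1, a triangle for replicate 2 and a bar for the group mean. The 4 fat-1 libraries lie below the 4 WT libraries for Adgre1, Lyve1, Mrc1 and Cd163, as in 4.56% of all tested genes. After scaling to the median ratio, not drawn here, this holds for Mrc1 alone. WT-TAC1 is the highest library for Cd68 at 28.2 FPKM, and WT-Sham1 is the highest for Ccl2 at 9.54 FPKM.

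Csf1r, the receptor that macrophages need for survival, was among the more abundant of the 10 genes (chr18:61100598-61132149, GRCm38, plus strand). Its level was 13.9 and 16.5 FPKM in WT-Sham, 20.1 and 18.0 FPKM in WT-TAC, 14.9 and 13.8 FPKM in Fat1-Sham and 11.8 and 12.3 FPKM in Fat1-TAC. The WT-TAC libraries were thus the highest and the Fat1-TAC libraries the lowest, while the 2 sham groups overlapped. TAC libraries were higher in WT and lower in fat-1 hearts without overlap for 7.93% of all tested genes. After scaling to the median ratio this did not hold for Csf1r. Csf1r was 0.61 ± 0.17 lower on the log2 scale in Fat1-TAC than in WT-TAC (SE, limma, adjusted p = 0.150), and the sham groups differed by -0.07 ± 0.17 (adjusted p = 1.0). Of the 5774 annotated exon bases of Csf1r, 873 overlap exons of Hmgxb3 on the other strand, and whether reads were counted by strand is not given in the sources used here.

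Adgre1 encodes F4/80, the surface receptor by which mouse macrophages are usually recognised (chr17:57358691-57483527, plus strand). It stood at 6.78 and 7.15 FPKM in WT-Sham, 9.37 and 7.29 FPKM in WT-TAC, 5.90 and 5.83 FPKM in Fat1-Sham, and 5.48 and 4.57 FPKM in Fat1-TAC. The highest fat-1 library was below the lowest WT library, as in 4.56% of all tested genes, but not after scaling to the median ratio. Between genotypes Adgre1 differed by -0.42 ± 0.15 (log2, SE, limma adjusted p = 0.293), which did not pass.

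Cd68 encodes a lysosomal glycoprotein of phagocytes (chr11:69664213-69666153, minus strand). Its level was 7.58 and 13.8 FPKM in WT-Sham, 28.2 and 12.2 FPKM in WT-TAC, 6.57 and 9.31 FPKM in Fat1-Sham, and 7.55 and 7.77 FPKM in Fat1-TAC. The WT-TAC mean was set by WT-TAC1, since WT-TAC2 lay between the 2 WT-Sham libraries. The difference of 0.80 ± 0.42 between WT-TAC and WT-Sham (log2, SE, limma adjusted p = 0.218) was 0.23 without WT-TAC1, and Cd68 was called there without WT-TAC2, at 1.38 and an adjusted p of 0.0103, with 50.5% of all tested genes called.

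Lyve1 encodes the hyaluronan receptor that marks perivascular resident macrophages and also lymphatic vessels (chr7:110850607-110863239, minus strand). Lyve1 was at 21.5 and 21.4 FPKM in WT-Sham, 21.1 and 18.3 FPKM in WT-TAC, 15.2 and 11.3 FPKM in Fat1-Sham, and 8.86 and 12.3 FPKM in Fat1-TAC. In FPKM the 4 WT libraries differed little among themselves. Every fat-1 library was lower than each of them, as in 4.56% of all tested genes. After scaling to the median ratio the genotypes overlapped, though not within sham or within TAC. Lyve1 was 0.76 lower in fat-1 over both surgeries (log2, 95% interval -1.13 to -0.40, fold 0.589, limma adjusted p = 0.213). This difference was -0.67 ± 0.22 between the sham groups (SE, adjusted p = 1.0, unadjusted p = 0.0178) and -0.85 ± 0.22 between the TAC groups (adjusted p = 0.143). Within WT, both TAC libraries of Lyve1 lay below both sham libraries, as in 7.09% of all tested genes, by 0.12 ± 0.22 (log2, SE). After scaling to the median ratio they again lay below, as in 24.3% of all tested genes, and the difference was -0.53. The genotype difference kept its sign under all alternatives tried, between -0.87 and -0.50, and 0.692% of all tested genes were lower between the sham groups at an unadjusted p under 0.05 with a fold over 1.5, of the 10 genes Lyve1 alone.

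Genes of lymphatic endothelium had no common direction. The 5 lymphatic genes found summed to 16.7 to 25.6 FPKM in the WT libraries and to 22.4 to 25.9 FPKM in the fat-1 libraries, and their median genotype difference was -0.07 (log2), with 2 of 4 tested genes lower and 0 called. Prox1, the transcription factor of lymphatic identity, which cardiomyocytes also express, was at 9.38 and 11.1 FPKM in WT-Sham, 5.91 and 10.6 FPKM in WT-TAC, 15.7 and 14.3 FPKM in Fat1-Sham, and 11.4 and 13.4 FPKM in Fat1-TAC. Flt4, the lymphatic receptor for vascular endothelial growth factor C, lay between 3.85 and 6.30 FPKM in WT and between 5.12 and 5.52 FPKM in fat-1 hearts. Mmrn1 lay between 2.54 and 4.71 FPKM in WT and between 2.67 and 3.02 FPKM in fat-1 hearts. For Reln these ranges were 2.01 to 5.06 FPKM and 2.42 to 2.93 FPKM. The genotype difference was 0.549 for Prox1, 0.041 for Flt4, -0.214 for Mmrn1 and -0.175 for Reln (log2). The part of lymphatic vessels in the Lyve1 values was not tested.

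Mrc1 encodes the mannose receptor CD206, an endocytic receptor of tissue macrophages (chr2:14229392-14332057, plus strand). Its level was 14.6 and 20.7 FPKM in WT-Sham, 22.2 and 19.0 FPKM in WT-TAC, 11.7 and 13 FPKM in Fat1-Sham, and 13.2 and 11.9 FPKM in Fat1-TAC. All fat-1 libraries were below all WT libraries, as in 4.56% of all tested genes, and also after scaling to the median ratio, as in 3.16%. The genotype difference was -0.57 ± 0.15 (log2, SE, limma adjusted p = 0.248), whereas Fat1-TAC and Fat1-Sham differed by 0.03 ± 0.21.

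Cd163 encodes the scavenger receptor for haemoglobin bound to haptoglobin (chr6:124304656-124330527, plus strand). It was at 12.4 and 13.7 FPKM in WT-Sham, 14.5 and 15.1 FPKM in WT-TAC, 11.0 and 9.51 FPKM in Fat1-Sham, and 9.34 and 8.73 FPKM in Fat1-TAC. The 2 genotypes did not overlap in FPKM, as in 4.56% of all tested genes, but they did after scaling to the median ratio. Replicates were close to each other. Cd163 was 0.49 ± 0.12 lower on the log2 scale in fat-1 over both surgeries (SE, limma adjusted p = 0.236) and 0.65 ± 0.17 lower in Fat1-TAC than in WT-TAC (adjusted p = 0.144).

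Timd4 encodes the phosphatidylserine receptor TIM4, with which resident macrophages take up dying cells (chr11:46810800-46844332, plus strand). It was scarce, at 1.30 and 1.60 FPKM in WT-Sham, 2.46 and 1.92 FPKM in WT-TAC, 1.66 and 1.04 FPKM in Fat1-Sham, and 0.985 and 0.837 FPKM in Fat1-TAC, and rested on 33 to 106 fragments. The Fat1-TAC libraries were the lowest and the WT-TAC libraries the highest, and the sham groups overlapped. TAC libraries were higher in WT and lower in fat-1 hearts without overlap for 7.93% of all tested genes. After scaling to the median ratio this still held for Timd4, as for 3.47%. Timd4 differed by -0.74 between the TAC groups (log2) and by -0.07 between the sham groups, neither past the threshold (limma adjusted p = 0.163 and 1.0).

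The pattern of fat-1 libraries all below WT libraries was seen in 4 of the 10 genes (Adgre1, Lyve1, Mrc1 and Cd163) and in 4.56% of the tested genes. After scaling to the median ratio it was seen in 1 of the 10 (Mrc1) and in 3.16% of the tested genes. Within sham, both fat-1 libraries were below both WT libraries for 6 of the 10 genes, against 16.5% of the tested genes, and with the median ratio for 7 of the 10, against 16.9%. Within TAC this held for 9 of the 10, against 57.1%, and with the median ratio for 8 of the 10, against 28.7%.

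**Figure D2:**
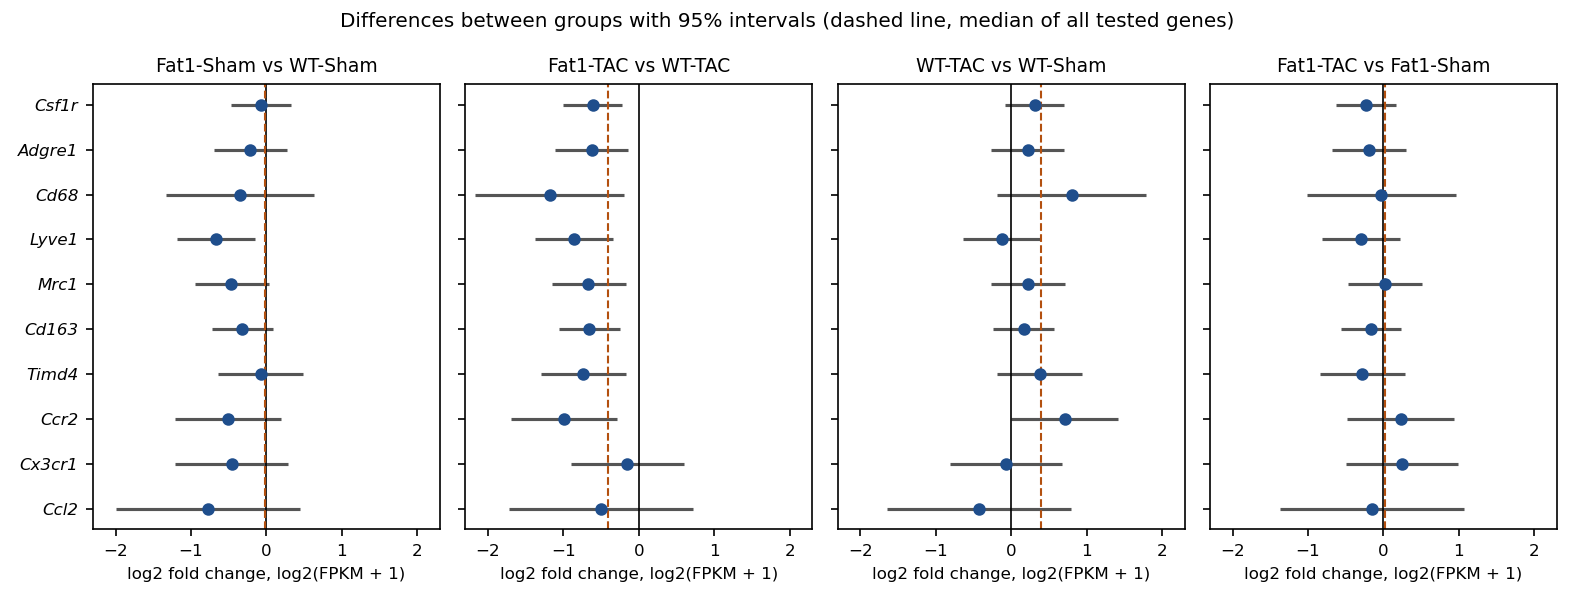
Difference between groups for each of the 10 genes on the log2(FPKM + 1) scale (x axes), as a point with its 95% interval from limma, in 4 comparisons; the solid line marks no difference and the dashed line the median of all tested genes. The points of both genotype comparisons lie below 0 for all 10 genes, while in WT-TAC against WT-Sham the median of the 10 genes, 0.22, lies below the median of all genes, 0.39.

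Promoters are shown for the genes of the 10 that lay lower in all fat-1 libraries and had a window in the RefSeq table, Mrc1 and Cd163. Cd68 is shown as well, since it had the highest level of the 10 genes in WT-TAC1. The windows of Ccr2, Cx3cr1 and Timd4 were searched but are not shown. The windows are the 250 bases before the RefSeq start on GRCm38.p6, and 6 of the 10 genes had one. They were searched on both strands for GAGGAA, the core that PU.1 binds, the factor encoded by Spi1 that macrophages require, and each match is in capitals. Mrc1 is read on the plus strand (chr2:14229164-14229413), Cd163 on the plus strand (chr6:124304401-124304650) and Cd68 on the minus strand (chr11:69666171-69666420).
Mrc1: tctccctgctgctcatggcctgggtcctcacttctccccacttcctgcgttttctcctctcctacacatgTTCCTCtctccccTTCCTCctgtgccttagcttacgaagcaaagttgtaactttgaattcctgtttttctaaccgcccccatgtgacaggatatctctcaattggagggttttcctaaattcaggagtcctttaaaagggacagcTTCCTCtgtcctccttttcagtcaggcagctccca
Cd163: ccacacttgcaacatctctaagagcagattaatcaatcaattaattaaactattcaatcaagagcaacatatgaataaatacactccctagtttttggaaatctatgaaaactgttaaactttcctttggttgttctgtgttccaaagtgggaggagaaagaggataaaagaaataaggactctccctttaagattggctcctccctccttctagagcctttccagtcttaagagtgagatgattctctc
Cd68: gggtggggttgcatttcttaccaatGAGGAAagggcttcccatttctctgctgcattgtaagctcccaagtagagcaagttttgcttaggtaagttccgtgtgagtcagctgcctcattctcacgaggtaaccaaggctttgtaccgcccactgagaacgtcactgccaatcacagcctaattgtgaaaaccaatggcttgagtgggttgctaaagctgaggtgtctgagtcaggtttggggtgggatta
The Mrc1 window held 3 matches, which stand on the other strand and are printed as TTCCTC, at -180, -167 and -35 from the start. The Cd68 window held 1 match at -225, and Cd163, Ccr2, Cx3cr1 and Timd4 had no match in these windows. Of all 32851 windows, 23.3% held at least 1 match and 0.429% held 3 or more. Spi1 itself lay between 8.49 and 18.3 FPKM in the WT libraries and between 6.49 and 8.71 FPKM in the fat-1 libraries.

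Ccr2 is the receptor that draws inflammatory monocytes out of the marrow and into tissue (chr9:124101950-124113557, plus strand). Its level was 1.36 and 2.08 FPKM in WT-Sham, 4.37 and 2.62 FPKM in WT-TAC, 1.02 and 0.775 FPKM in Fat1-Sham, and 0.885 and 1.61 FPKM in Fat1-TAC. Both WT-TAC libraries were above every other library. They lay above both WT-Sham libraries, as in 52.5% of all tested genes, and also after scaling to the median ratio, as in 26.5%. Both Fat1-TAC libraries lay below them, as in 57.1%, and also after that scaling, as in 28.7%. Relative to WT-Sham, Ccr2 was 0.71 ± 0.30 higher in WT-TAC (log2, SE, limma adjusted p = 0.181), where 0.921% of all tested genes were called higher and no gene of the 10 was. It was the single gene of the 10 with an unadjusted p under 0.05 and the fold there, against 22.7% of all tested genes. With WT-TAC1 left out the difference was 0.43, and without WT-TAC2 Ccr2 was called, at 0.99 and a limma adjusted p of 0.029, when 50.5% of all tested genes were. Ccr2 was 0.99 ± 0.30 lower on the log2 scale in Fat1-TAC than in WT-TAC (adjusted p = 0.159), and Fat1-TAC and Fat1-Sham differed by 0.23 ± 0.30.

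Cx3cr1, the fractalkine receptor of patrolling monocytes and many resident macrophages, was low and varied between replicates (chr9:119901616-120069879, minus strand). It was at 1.19 and 2.05 FPKM in WT-Sham, 2.07 and 0.967 FPKM in WT-TAC, 1.08 and 0.686 FPKM in Fat1-Sham, and 1.51 and 0.957 FPKM in Fat1-TAC. The TAC groups overlapped, and their difference of -0.15 ± 0.32 (log2, SE) became 0.11 after scaling to the median ratio. Of its 4505 annotated exon bases, 78 overlap an antisense transcript.

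Ccl2, the chemokine MCP-1 that attracts cells with Ccr2, was highest in a sham library (chr11:82035571-82037453, plus strand). Its level was 9.54 and 2.12 FPKM in WT-Sham, 3.70 and 2.86 FPKM in WT-TAC, 2.71 and 2.03 FPKM in Fat1-Sham, and 1.79 and 2.25 FPKM in Fat1-TAC. WT-Sham1 was above the other 7 libraries, which lay within 1.79 to 3.70 FPKM. The difference of -0.43 ± 0.52 between WT-TAC and WT-Sham (log2, SE, limma adjusted p = 0.554) turned to 0.45 without WT-Sham1. Ccl7 and Ccl12, 2 further ligands of Ccr2 on chromosome 11, were also highest in WT-Sham1, at 6.08 and 9.71 FPKM, against at most 3.06 and 5.85 FPKM in the other 7 libraries. Ccl8, a related chemokine, had another order, with 2.35 and 10.1 FPKM in WT-Sham, 19.2 and 14.3 FPKM in WT-TAC, and 2.31 to 5.34 FPKM in the fat-1 libraries.

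Between TAC and sham the directions were mixed, and no gene of the 10 passed the threshold in either genotype by limma or by limma-voom on the recovered fragments. In WT hearts the means of 7 of the 10 were higher and those of 3 lower in TAC, with a median of 0.22 (log2) against 0.39 over all tested genes, of which 79.3% were higher. After scaling to the median ratio, 3 were higher and 7 lower, with a median of -0.17 against 0.03. Both WT-TAC libraries lay above both WT-Sham libraries for 5 of the 10 genes, against 52.5% of the tested genes, and after that scaling for 2 (Ccr2 and Timd4), against 26.5%, while Adgre1 and Lyve1 then lay below, as did 24.3%. In fat-1 hearts the means of 3 were higher and those of 7 lower, with a median of -0.16 against 0.02, and 45.3% of all tested genes were lower. At the unadjusted p under 0.05 and the fold, 0 of the 10 passed, against 1.33% of all tested genes higher and 0.533% lower, and 0.00692% were called higher and 0% lower. Both Fat1-TAC libraries lay below both Fat1-Sham libraries for Adgre1, Csf1r, Timd4 and Cd163, 4 of the 10, against 21.5% of the tested genes, and after scaling to the median ratio for the same 4, against 25.5%. The 2 comparisons have no library in common. Averaged over the genotypes, 8 of the 10 means were higher in TAC, with a median of 0.04 against 0.21, and 76.6% of all tested genes were higher. After scaling to the median ratio 2 were higher. Neither a gene of the 10 nor any other was called, and at the unadjusted p and the fold 0 of the 10 were higher, against 7.67% of all tested genes. The interaction of genotype and surgery was negative for 8 of the 10, with a median of -0.37, the same to 2 decimals as that of all tested genes, of which 77.4% were negative. With the median ratio it was negative for 5 and positive for 5, with a median of -0.01 against -0.02, and with quantile normalization negative for 4 and positive for 6, with a median of 0.11 against 0.05. For Adgre1, Csf1r, Timd4 and Cd163 the TAC libraries were higher in WT and lower in fat-1 hearts without overlap, as for 7.93% of all tested genes, and after scaling to the median ratio this held for Timd4, as for 3.47%. The interaction was called for 0 of the 10, against 0.0623% of all tested genes called negative, and at the unadjusted p and the fold for 0 of the 10, against 6.38%.

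Between the TAC groups, the means of 10 of 10 genes were lower in Fat1-TAC, with a median of -0.66 (log2) against -0.40 over all tested genes, of which 78% were lower. No gene of the 10 was called, against 1.39% of all tested genes called lower. At an unadjusted p under 0.05 and a fold over 1.5, 8 of the 10 were lower (all but Cx3cr1 and Ccl2), against 23.5% of all tested genes. Without WT-TAC2, 8 were called, when 53.8% of all tested genes were. Without WT-TAC1, the library with thymocyte mRNA, 9 of the 10 means were lower, with a median of -0.58 against -0.19, and 0 were called (smallest adjusted p = 0.189). After scaling to the median ratio 9 of the 10 were lower, with a median of -0.26 against -0.04. This comparison shares the WT-TAC libraries with that of WT-TAC and WT-Sham.

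Between the sham groups, which hold neither WT-TAC library, the means of 10 of 10 genes were also lower in fat-1. The median was -0.41 (log2) against -0.01 over all tested genes, of which 53.5% were lower, and with the median ratio it was -0.39 against 0.00. Without WT-Sham2, 7 of the 10 means were lower, with a median of -0.23 against 0.06. No gene of the 10 and no gene of all those tested was called by limma or by limma-voom on the recovered fragments. With an unadjusted p under 0.05 and the fold, 100 of all tested genes were lower, among them 1 of the 10, Lyve1. Of the sham libraries, Fat1-Sham1 held 44.0 FPKM of airway genes and 35.9 FPKM of alveolar epithelium genes, and the part of this in the values of Fat1-Sham1 was not tested.

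The genes were also set against Csf1r in the same library, which removes a common scale, and the ratios are given with no test. Lyve1 per Csf1r was 1.55 and 1.30 in WT-Sham, 1.05 and 1.02 in WT-TAC, 1.02 and 0.819 in Fat1-Sham, and 0.749 and 0.993 in Fat1-TAC. The ratio was thus highest in WT-Sham, and the 6 other libraries ranged from 0.749 to 1.05. Ccr2 per Csf1r was 0.0982 and 0.126 in WT-Sham, 0.218 and 0.146 in WT-TAC, 0.0686 and 0.0563 in Fat1-Sham, and 0.0749 and 0.130 in Fat1-TAC, so that both Fat1-Sham libraries were below, and both WT-TAC libraries above, those of all other groups. Mrc1 per Csf1r was 1.05 to 1.25 in WT and 0.783 to 1.12 in fat-1 hearts, and Cd163 per Csf1r was 0.722 to 0.895 and 0.690 to 0.790, and both ratios overlapped. Cd68 per Csf1r was 1.41 in WT-TAC1 and 0.440 to 0.838 in the other 7 libraries.

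**Figure D3:**
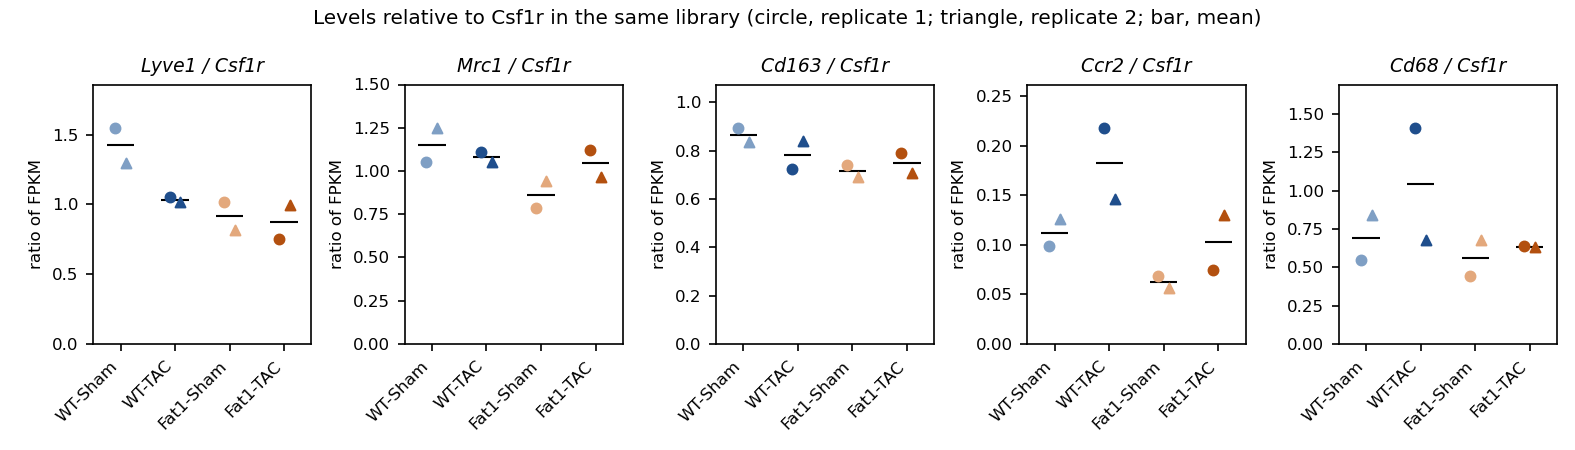
Level of 5 genes divided by that of Csf1r in the same library (y axes, ratio of FPKM from 0), by group, with a circle for replicate 1, a triangle for replicate 2 and a bar for the group mean. Lyve1 per Csf1r is highest in the WT-Sham libraries, at 1.55 and 1.30, and Cd68 per Csf1r stands out in WT-TAC1 at 1.41.

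In FPKM levels, which are per length, Lyve1, Mrc1 and Csf1r took the first 3 places of the 10 genes in 6 of the 8 libraries. In WT-TAC1 Cd68 was first and Csf1r came behind Lyve1, and in Fat1-TAC1 Cd163 stood above Lyve1. In WT-Sham both Lyve1 values lay above those of Mrc1 and Csf1r, which overlapped. In WT-TAC the order was Mrc1, Lyve1 and Csf1r in both libraries, but the values of the 3 genes overlapped. In the fat-1 groups the order changed between replicates, and Lyve1 overlapped with both other genes. Timd4, Ccr2 and Cx3cr1 were the last 3 in 7 libraries, in changing order, and in WT-TAC1 Ccl2 stood behind Ccr2.

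The gene with the profile over the 8 libraries most like that of Csf1r was sought by the root mean square difference of centred log2(FPKM + 1) values among 13630 genes. The nearest 3 were Atrnl1 (0.029), Il6st (0.041) and Smarcal1 (0.047). Timd4 was the nearest of the other 9 genes (0.096), at rank 91 of the 13630. For Ccr2 the nearest were Stx1a (0.093), Dse (0.106) and Vasn (0.111), and the nearest of the other 9 genes was Cd68 (0.278), at rank 1894. For Lyve1 they were Zfp57 (0.108), Ccl6 (0.121) and Bst1 (0.159), so that a chemokine of macrophages stood among them. The nearest of the other 9 genes to Lyve1 was Cd163 (0.237), at rank 40. These distances are descriptive, and all genes share the libraries and their scale.

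Wider lists of macrophage genes also had lower means in Fat1-TAC than in WT-TAC, where 78% of all tested genes were lower. Of 18 further genes shared by macrophages and other phagocytes, 18 had a lower mean there, with a median of -0.68 (log2) against -0.40 over all tested genes. Of these 2 were called, against 1.39% of all tested genes called lower. Between the sham groups 18 of the 18 were lower in fat-1, against 53.5% of all tested genes, with a median of -0.30 against -0.01 and 0 called. Lyz2, lysozyme, was at 171 and 193 FPKM in WT-Sham, 343 and 271 FPKM in WT-TAC, 155 and 158 FPKM in Fat1-Sham, and 161 and 139 FPKM in Fat1-TAC. It fell by 1.02 on the log2 scale in Fat1-TAC against WT-TAC (limma adjusted p = 0.0705). Lgals3, galectin 3, which epithelial cells also make, fell by 2.49 (adjusted p = 0.0859). Neither was called after scaling to the median ratio or without WT-TAC1, when 0 of the 18 were called, while 15 were without WT-TAC2, when 53.8% of all tested genes were called. In both of the first settings 18 of the 18 means stayed lower, with medians of -0.32 against -0.04 and of -0.41 against -0.19. The fits of these lists without a WT-TAC library were added after the values were seen. The complement genes C1qa, C1qb and C1qc, products of tissue macrophages, were not called. C1qa lay between 70.3 and 109 FPKM in WT and between 59.3 and 68.0 FPKM in fat-1 hearts. These values did not overlap, as in 4.56% of all tested genes, but they did after scaling to the median ratio.

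Of 14 further genes of resident macrophages, 14 had a lower mean in Fat1-TAC than in WT-TAC (median -0.61 against -0.40, log2), against 78% of all tested genes. Between the sham groups 10 of the 14 were lower in fat-1, against 53.5%, with a median of -0.19 against -0.01 and 0 called. Folr2, Vsig4, Slco2b1 and Ccl24 were higher there. In Fat1-TAC against WT-TAC 1 was called lower, against 1.39% of all tested genes. This was Cbr2, carbonyl reductase 2, which resident macrophages express and which is also abundant in airway cells. It was at 40.0 and 61.1 FPKM in WT-Sham, 312 and 529 FPKM in WT-TAC and 28.3 to 35.6 FPKM in the fat-1 libraries, rose by 3.01 on the log2 scale in WT-TAC (limma adjusted p = 0.0198) and fell by 3.65 in Fat1-TAC against WT-TAC (adjusted p = 0.00959). Its high libraries were the 2 with 1330 and 3530 FPKM of airway genes, of which 4 of 5 were also called in each of these comparisons; the part of airway mRNA in Cbr2 was not tested. Without WT-TAC1 Cbr2 was still the 1 gene called, and without WT-TAC2 8 of the 14 were called lower in Fat1-TAC, against 53.8% of all tested genes called. After scaling to the median ratio 10 of the 14 means were lower in Fat1-TAC (median -0.23 against -0.04), and Cbr2 was again the 1 called. Selenop, the selenium carrier, was not called. It was at 364 to 516 FPKM in WT and 297 to 350 FPKM in fat-1 hearts. These values did not overlap, as in 4.56% of all tested genes, but they did after scaling to the median ratio.

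Of 12 tested genes of monocytes and their early descendants, 12 had a lower mean in Fat1-TAC than in WT-TAC (median -1.58 against -0.40, log2), against 78% of all tested genes. Between the sham groups 11 of the 12 were lower in fat-1, against 53.5%, with a median of -0.39 against -0.01 and 0 called. In Fat1-TAC against WT-TAC 1 was called lower, against 1.39% of all tested genes. Fn1, fibronectin, which fibroblasts make in quantity, was at 19.2 and 35.8 FPKM in WT-Sham, 63.2 and 66.8 FPKM in WT-TAC, 18.0 and 17.2 FPKM in Fat1-Sham, and 14.7 and 25.8 FPKM in Fat1-TAC, and fell by 1.69 on the log2 scale (limma adjusted p = 0.0997). It was not called after scaling to the median ratio or without WT-TAC1, when 9 genes of the list were tested and the median was -0.62 against -0.19, and without WT-TAC2 7 of 10 tested genes were called, against 53.8% of all tested genes. After that scaling 11 of the 12 means were lower, with a median of -1.22 against -0.04. Itgal, an integrin chain that lymphocytes also express, was high in WT-TAC1 alone, at 75.2 FPKM against at most 1.87 FPKM elsewhere. Plac8, a gene of inflammatory monocytes, was at 21.8 and 5.21 FPKM in WT-TAC and at most 3.12 FPKM elsewhere.

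Of 9 tested ligands, 9 had a lower mean in Fat1-TAC than in WT-TAC (median -0.91, log2, against -0.40), against 78% of all tested genes. Between the sham groups 8 of the 9 were lower in fat-1, against 53.5%, with a median of -0.55 against -0.01 and 0 called. In Fat1-TAC against WT-TAC 1 was called lower, against 1.39% of all tested genes. Ccl6 was at 32.5 and 34.8 FPKM in WT-Sham, 36.7 and 30.6 FPKM in WT-TAC, 20.1 and 20.0 FPKM in Fat1-Sham, and 14.7 and 18.5 FPKM in Fat1-TAC, and fell by 0.98 on the log2 scale (limma adjusted p = 0.0791), a call lost after scaling to the median ratio and without WT-TAC1. After that scaling 7 of the 9 means were lower (median -0.53 against -0.04), and without WT-TAC1 7 of 8 tested (median -0.44 against -0.19). Without WT-TAC2, 4 of 8 tested ligands were called, against 53.8% of all tested genes. Csf1, the main ligand of Csf1r, lay between 26.4 and 40.4 FPKM in WT and between 26.7 and 34.8 FPKM in fat-1 hearts, with overlap. Il34, its second ligand, was at 8.77 and 4.73 FPKM in WT-TAC and 2.14 to 3.21 FPKM in the other 6 libraries. Cx3cl1, the ligand of Cx3cr1, lay between 9.74 and 17.5 FPKM and overlapped between all groups.

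Markers of other leukocytes and of lung macrophages moved with some of these libraries. The 7 alveolar macrophage genes found summed to 36.3 and 26.8 FPKM in WT-TAC and 21.4 to 26.8 FPKM in the other 6 libraries. Outside WT-TAC1 most of this sum was Car4, at 11.9 and 16.5 FPKM in WT-TAC and 18.1 to 25.5 FPKM in the other 6. Siglecf, their defining receptor, was at most 0.128 FPKM, and Ear2 was at 9.33 FPKM in WT-TAC1 and at most 2.16 FPKM elsewhere. The alveolar epithelium genes summed to 91.9 and 3.88 FPKM in WT-TAC, 35.9 FPKM in Fat1-Sham1 and at most 0.552 FPKM elsewhere. Marco was at 1.80 and 3.83 FPKM in WT-TAC and at most 1.44 FPKM elsewhere, and Itgax was at 10.2 FPKM in WT-TAC1 and at most 3.00 FPKM elsewhere. The neutrophil list, led by S100a8, summed to 36.6 FPKM in WT-Sham2 and 3.27 to 17.2 FPKM in the other 7. The 6 dendritic cell genes summed to 22.5 FPKM in WT-TAC1 and 8.87 to 12.9 FPKM elsewhere. The 5 B cell genes summed to 18.4 and 14.6 FPKM in WT-TAC, 11.3 FPKM in Fat1-TAC2 and at most 3.02 FPKM elsewhere. Of the cells that are no leukocytes, the 5 adipocyte genes summed to 523 and 671 FPKM in WT-TAC and 5.43 to 262 FPKM in the other 6 libraries. The 5 fibroblast genes summed to 538 to 874 FPKM in WT and 481 to 527 FPKM in fat-1 hearts. Their sum was thus lower in every fat-1 library, as were Col1a1, Col3a1 and Pdgfra, a pattern of 4.56% of all tested genes. Dcn and Postn overlapped between the genotypes. Dcn was at 284 FPKM in WT-Sham1 and 311 FPKM in Fat1-TAC2, and Postn at 21.2 FPKM in WT-Sham1 and 26.2 FPKM in Fat1-TAC1. The part of these cells in the values of the 10 genes was not tested, and neither WT-TAC library enters the means of the sham groups.

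**Figure D4:**
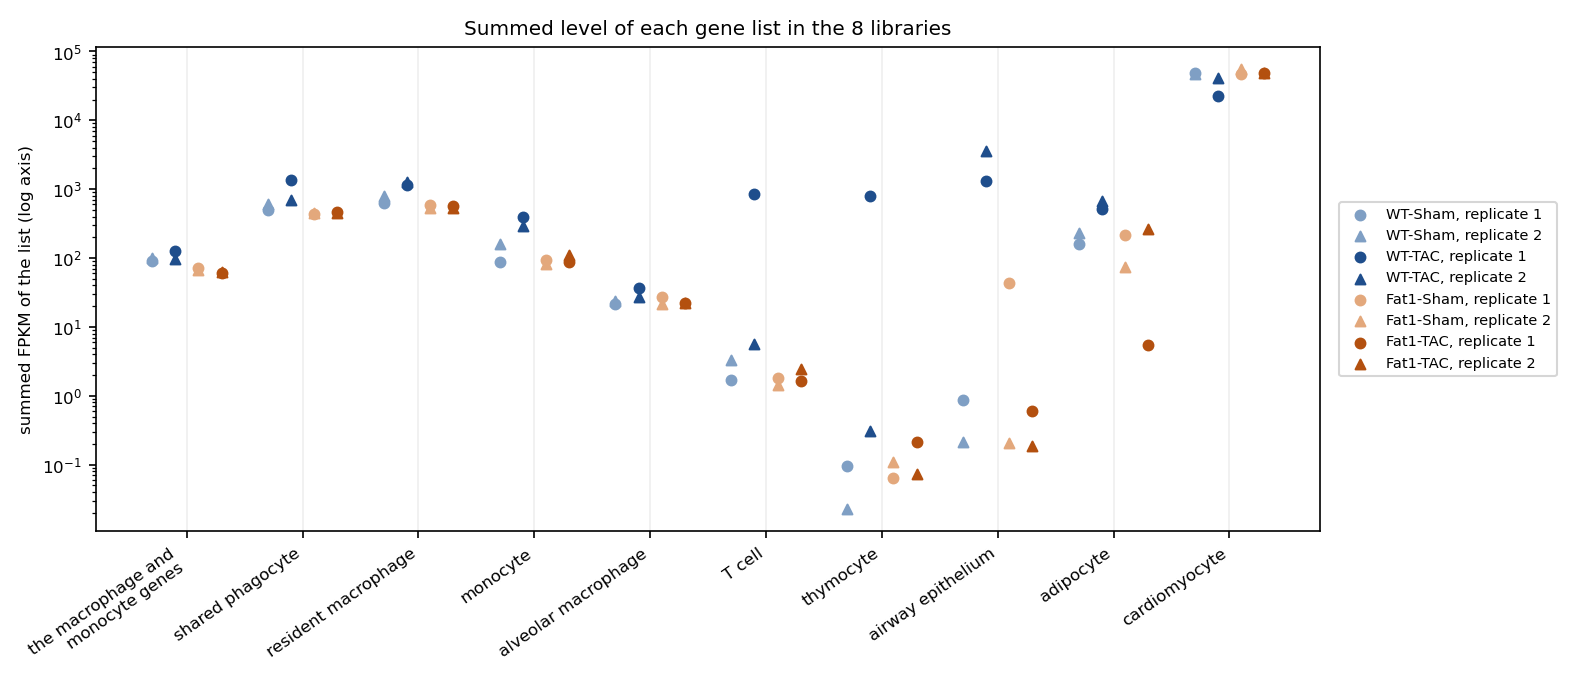
Summed FPKM of 10 gene lists (log axis) in each of the 8 libraries, coloured by group, with a circle for replicate 1 and a triangle for replicate 2. The macrophage and monocyte genes sum to 90.1 to 128 FPKM in WT and 61.5 to 71.8 FPKM in fat-1 libraries, while the T cell and thymocyte lists stand out in WT-TAC1 and the airway list in both WT-TAC libraries.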

How the data were processed

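mRNA of 8 mouse heart libraries was sequenced on an Illumina HiSeq after NEBNext Ultra preparation. The authors deposited FPKM values for 25929 genes. Per the labels, reads were aligned with HISAT2 to mm10 (GRCm38), and the counting program and annotation are not given in the sources used here. Whole fragments per gene were recovered from the FPKM steps, within 0.01 fragment, and served for depth and for 1 alternative. Gene positions are those of GENCODE M21 (GRCm38).

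Genes that reached 1 FPKM in 2 libraries or more were tested with limma 3.58.1 (R 4.3.3) on log2(FPKM + 1), with a trend, 4 group means and all 8 libraries, which left 4 residual degrees of freedom. Errors are limma's SE. Fold changes are on the log2(FPKM + 1) scale and understate changes of low genes. The cutoffs followed the methods of the study: adjusted p under 0.1 and fold over 1.5. On simulated data, 196 of 200 changed genes were called for WT-TAC against WT-Sham among 14035 genes. These changes were 4-fold up or down, larger than those of the 10 genes. All genes had the same simulated spread, and no library held mRNA of other tissues. Smaller differences were not simulated, so the check does not show how often they would be called. The genes, lists and alternatives were chosen with earlier results of these data known. Named beside the 10 genes are, from each list, the genes called and others of the list with their values, and for Csf1r, Ccr2 and Lyve1 the 3 genes with the nearest profile. With 2 libraries a group an exact permutation test cannot go below p = 0.33. Alternatives were 2 further scalings, leaving out mitochondrially encoded genes, another pseudocount, other filters, only the groups compared, a replicate block, limma-voom and leaving out libraries.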

Additional observations from a re-analysis of the deposited data

Results flagged for a closer look

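In 4 of the 10 genes both TAC libraries lay above both sham libraries in WT and below them in fat-1 hearts, against 7.93% of all tested genes. The TAC effect in fat-1 minus that in WT was -0.41 for Adgre1, -0.54 for Csf1r, -0.66 for Timd4 and -0.33 for Cd163 (log2). The difference itself was tested as the interaction of genotype and surgery in limma and passed for none of them (adjusted p = 0.500, 0.495, 0.495 and 0.501). The median interaction over all tested genes was -0.37, and after scaling to the median ratio the pattern held for 1 gene, Timd4, against 3.47% of all tested genes.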

How the results depend on the processing

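Of the single-gene values under the alternatives, 888 kept their direction and their side of the threshold, 34 changed direction and 15 newly passed. The genotype difference over both surgeries stayed at or below 0, to 2 decimals, for each of the 10 genes in every alternative that tested it. Leaving out 1 library at a time gave 0 to 2 called genes for WT-TAC against WT-Sham, 0 to 8 for Fat1-TAC against WT-TAC, 0 to 2 for TAC against sham over both genotypes, 0 to 2 for the interaction and 0 to 4 for the genotypes over both surgeries, and each highest count came without WT-TAC2, when 25.5% to 53.8% of all tested genes were called and the lone WT-TAC library is assumed to vary like the other groups. At an unadjusted p under 0.05 with the fold, the counts were 1, 8, 1 for the sham groups and 3 for the genotypes over both surgeries. The cause of these changes was not tested.

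After scaling to the median ratio, WT-TAC against WT-Sham turned for Adgre1 (-0.16), Csf1r (-0.09), Mrc1 (-0.18) and Cd163 (-0.23), Fat1-TAC against WT-TAC for Cx3cr1 (0.11) and the interaction for Cd163 (0.04). Single-gene values were recomputed for the 10 genes in the 4 comparisons of 2 groups and for the genotypes, and in the interaction for Adgre1, Csf1r, Timd4 and Cd163, so that other turns in the interaction and in TAC against sham over both genotypes show in counts alone. Positive interactions went from 2 to 5 of the 10 with this scaling, 6 with quantile normalization and 4 without mitochondrially encoded genes, and higher means in TAC over both genotypes from 8 to 2, 2 and 4. The called genes of the shared, monocyte and ligand lists in Fat1-TAC against WT-TAC became 0, 0 and 0, and the genes with all fat-1 libraries below all WT libraries became 1. With quantile normalization, WT-TAC against WT-Sham turned for Adgre1 (-0.33), Csf1r (-0.17), Timd4 (-0.12), Mrc1 (-0.24) and Cd163 (-0.34), Fat1-TAC against WT-TAC for Cx3cr1 (0.38) and Ccl2 (0.04), the sham groups for Timd4 (0.02), and the interaction for Adgre1 (0.07) and Cd163 (0.15). Without mitochondrially encoded genes, Cd68 turned in Fat1-TAC against Fat1-Sham (0.01). Without WT-TAC1 and Fat1-Sham1, chosen after seeing the data, Mrc1 turned there (-0.05) and Cx3cr1 in Fat1-TAC against WT-TAC (0.17).

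Leaving out 1 library at a time, values also turned within these ranges (log2). For WT-TAC against WT-Sham they were -0.39 to 0.25 for Cx3cr1, -1.31 to 0.45 for Ccl2 and -0.01 to 0.47 for Mrc1. For Fat1-TAC against Fat1-Sham they were -0.25 to 0.19 for Cd68, -0.01 to 0.46 for Ccr2 and -0.05 to 0.10 for Mrc1. For Fat1-TAC against WT-TAC they were -0.47 to 0.17 for Cx3cr1. For Fat1-Sham against WT-Sham they were -0.74 to 0.04 for Cd68, -0.19 to 0.04 for Csf1r, -1.65 to 0.10 for Ccl2 and -0.27 to 0.12 for Timd4.

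No pairing by replicate number was seen: the correlations of same-numbered libraries were between -0.135 and 0.0236. With 2 libraries a group, these correlations cannot show that the libraries were unpaired. With the number as a replicate block 0 of the 10 genes were called in each comparison, and the calls over all genes went from 135 to 52 for WT-TAC against WT-Sham and from 206 to 52 for Fat1-TAC against WT-TAC. With 2 libraries a group, and 32 to 129 fragments of Ccl2, the data limit what can be shown for the low genes.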
